A study of Mus musculus with 12 samples.

Results

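T cells of the spleen were compared between mice that had received Th1 cells without the interleukin-23 receptor (KO) and mice that had received Th1 cells with it (control). The cells were chosen from the 4 spleen libraries by their T cell receptor signalling chains: a cell was kept when its UMIs of Cd3d, Cd3e and Cd3g summed to 3 or more. A UMI (unique molecular identifier) is the tag that marks 1 captured RNA molecule. The rule kept 9164 of 10222 spleen cells, out of 32763 cells in 12 libraries of the series. Kept cells numbered 764 and 3603 in the KO libraries, against 1136 and 3661 in the control libraries. Here and below, values of a group are given in the order batch 1, batch 2, and each KO library is paired with the control library of its batch.

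The study transferred Th1 cells into recipients and profiled CD4 T cells of the spleen and of 3 gut compartments by droplet-based single-cell 3′ RNA sequencing. KO cells carried the eGFP reporter on both Il23r alleles (Il23r eGFP/eGFP). Control cells carried it on 1 allele and a functional receptor on the other (Il23r wt/eGFP), so both groups held the reporter. The strain, sex and age of donors and recipients and the time after transfer were not stated in the labels or the design text. The labels number the samples as replicates without saying that each was a separate animal, so p-values measure the spread between these libraries. The comparison asked what the receptor changed in transferred T cells outside the gut.

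Interleukin-23 binds a receptor made of IL-23R and IL-12Rβ1, and the kinases TYK2 and JAK2 then activate mainly STAT3. Interleukin-12, which shares a subunit with interleukin-23, signals through IL-12Rβ1 and IL-12Rβ2 to STAT4 and sustains the Th1 programme of T-bet and interferon-γ. In mice, interleukin-23 is best known for sustaining pathogenic T cells in the inflamed gut, and the spleen serves as the lymphoid site away from it.

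Depth differed between the libraries. Kept cells had a median of 5690 and 3033 UMIs in KO, against 5457 and 2382 UMIs in control, and the summed UMIs of a library were between 5061875 and 13193263. The 4 libraries shared between 1 and 23 cell barcodes pairwise. UMIs were summed per gene and library, and levels are given as counts per 1000000 UMIs of the TMM-scaled library (CPM). In such sums, fewer cells of a kind and less RNA per cell cannot be told apart. Of 8 T cell markers measured outside the rule (Cd4, Cd2, Cd5, Cd28, Lck, Lat, Thy1 and Cd247), none passed the test, and their summed level was 4392 and 4561 CPM in KO, against 4560.2 and 4485 CPM in control. The CD8 markers Cd8a and Cd8b1 summed to 6.48 and 3.0 CPM in KO, against 4.55 and 7.59 CPM in control.

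The spleen T cells of the 2 genotypes differed in few genes at this replication. Of 10479 genes tested, 2 were higher in KO at an adjusted p of 0.05 (0.0191%) and 0 were lower, by edgeR with the batch as a block. At an unadjusted p of 0.05, 465 genes passed (4.44%). DESeq2 with the same block called 9 genes higher and 2 lower, and limma-voom called 2 higher and 1 lower. Of all genes tested, 25.5% were higher in KO in both pairs and 24.1% were lower in both, and these shares are the background for the counts below. Both KO libraries were above both controls for 12.4% of genes and below both for 13.4%. Fits with 1 library left out also dropped the block, so those values change 2 choices at once.

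Both genes past the threshold rested on very few cells. Xcl1, a chemokine that draws cross-presenting dendritic cells (chromosome 1, bases 164931644 to 164935527, minus strand, mm10), had 34.2 and 34.7 CPM in KO, against 6.16 and 5.19 CPM in control. KO was above control in every comparison of libraries, and the log2 fold change was 2.61 ± 0.21 (SE), with adjusted p = 0.02. In the first KO library, however, 1 cell held 135 of the 169 Xcl1 UMIs, and 10 cells had any. In the second, 91 cells had any, and the 10 highest held 307 of 474 UMIs. The control libraries had 42 UMIs in 19 cells and 54 UMIs in 32 cells. With the highest cell of each gene and library left out, an alternative chosen after seeing the data, Xcl1 gave 1.89 with adjusted p = 0.996.

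The other gene, Chil3, encodes a secreted lectin of macrophages and neutrophils and is named here after its values were seen. It had 121 and 143 UMIs in KO and 0 UMIs in both controls, which makes it at least 81.4-fold higher in KO against a floor of 3 counts over the control group. A single cell held 116 of the 121 UMIs in the first KO library, and a single cell held 141 of the 143 UMIs in the second. The first of these cells also held 679 of its library's 702 UMIs of the lysozyme gene Lyz2 and had 3 Cd3 UMIs. The second held 305 of 326 Lyz2 UMIs, and had 69 UMIs of the neutrophil gene S100a8 and 9 Cd3 UMIs. With the highest cells left out, Chil3 had 5 and 2 UMIs in KO and was too low to be tested. The loss of its call there is thus not a test result. In that fit edgeR called 0 genes, and 446 passed an unadjusted p of 0.05.

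**Figure D1:**
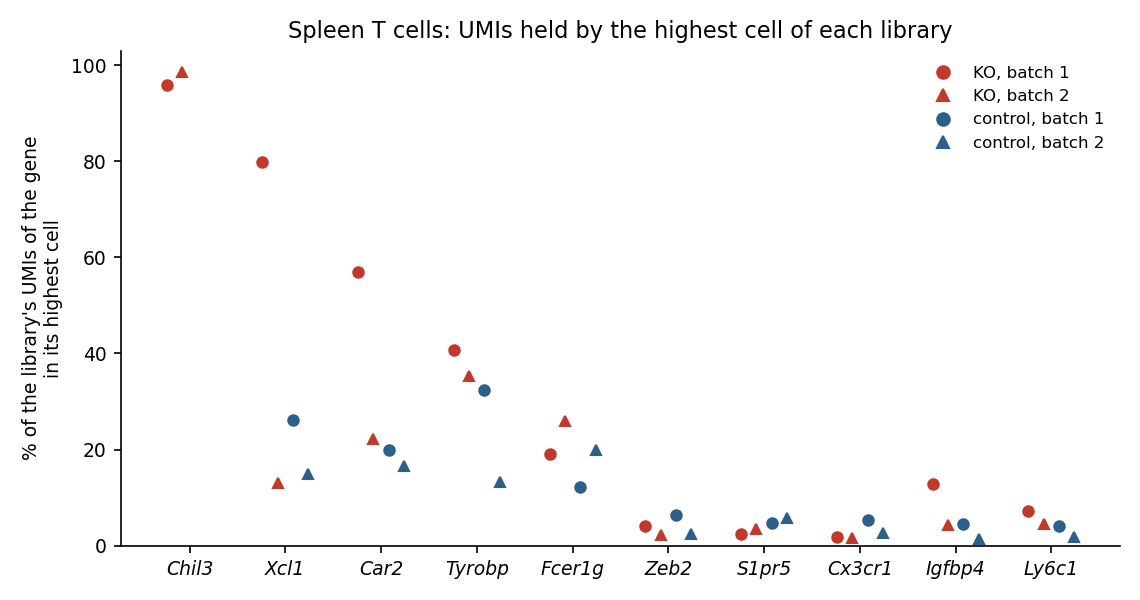
Share of each gene's UMIs that its highest cell held, for 10 genes (x axis), in percent of the library's UMIs of that gene (y axis); red marks KO libraries, blue control libraries, circles batch 1 and triangles batch 2. Chil3 has no point for the controls, which held none. For Chil3 1 cell held 95.9% and 98.6% in the KO libraries, while the points of S1pr5, Zeb2 and Cx3cr1 all lie under 10%.

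No gene of the interleukin-23 and interleukin-12 pathway passed the adjusted threshold. Il23r itself was rare in the kept cells, with 17 and 9 UMIs in KO, against 9 and 10 UMIs in control. A UMI of Il23r was found in 1.83% and 0.222% of kept cells in KO, against 0.704% and 0.246% in control. Among cells with no Cd3 UMI it was found in 37.4% and 12.7% in KO, against 18.9% and 3.80% in control, so the kept cells were below that background in every library. Reads near the 3′ end may stem from the reporter allele, so this count does not check the genotype labels.

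Il12rb1, the chain shared by both receptors, had 27.9 and 33.9 CPM in KO, against 32.9 and 22.8 CPM in control. Il12rb2, the chain of the interleukin-12 receptor alone, had 20.4 and 19.4 CPM in KO, against 18.0 and 26.0 CPM in control. For both chains the groups overlapped, and the log2 fold changes were 0.19 ± 0.22 and -0.14 ± 0.21 (SE, adjusted p = 0.993 each). Stat3 had 82.4 and 81.9 CPM in KO, against 81.0 and 76.6 CPM in control (log2 0.06 ± 0.12). Stat4, the main transducer of interleukin-12, had 78.5 and 56.8 CPM in KO, against 68.5 and 66.5 CPM in control. The Stat4 groups overlapped, with a log2 fold change of -0.02 ± 0.15.

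Among the kinases, Tyk2 had 18.4 and 17.6 CPM in KO, against 14.8 and 11.1 CPM in control. Jak2 had 17.8 and 14.6 CPM in KO, against 13.1 and 12.8 CPM in control. Both KO libraries were above both controls for each kinase, yet neither passed the test (log2 0.50 ± 0.21 and 0.31 ± 0.20, adjusted p = 0.993 each). The unadjusted p was 0.0448 for Tyk2 and 0.174 for Jak2.

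Socs3, a feedback inhibitor that STAT3 induces, was the 1 pathway gene lower in both pairs. It had 24.1 and 32.9 CPM in KO, against 43.1 and 43.4 CPM in control. The KO levels lay below both controls, with a log2 fold change of -0.60 ± 0.17 (SE). The unadjusted p was 0.00847 and the adjusted p was 0.929. Kept cells with a Socs3 UMI made up 12.3% and 10.1% in KO, against 18.8% and 10.2% in control. In cells with no Cd3 UMI the shares were 29.9% and 11.4% in KO, against 25.4% and 7.59% in control. That background lay above the kept cells in every library except the second control library, so Socs3 was not shown to differ in T cells. Of the 10 pathway genes tested, 0 passed the threshold, 4 were higher in both pairs and 1 was lower in both, with a median log2 fold change of 0.12 beside 0.01 over all genes. The promoter of Socs3 is shown because this gene is a known target of the transducer that interleukin-23 uses. It covers 250 bases before and 50 after the start of the RefSeq gene (GRCm38.p6, chr11:117969317-117969616, minus strand), and capitals mark the letters TTCNNNGAA, the core to which STAT dimers bind, searched on both strands.
Socs3: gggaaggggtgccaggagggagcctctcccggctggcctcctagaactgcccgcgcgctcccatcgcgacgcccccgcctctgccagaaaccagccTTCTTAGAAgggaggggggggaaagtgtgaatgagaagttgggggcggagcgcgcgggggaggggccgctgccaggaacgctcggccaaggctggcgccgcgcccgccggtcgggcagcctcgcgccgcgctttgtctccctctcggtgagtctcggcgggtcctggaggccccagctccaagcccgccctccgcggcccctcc
The letters lie 154 bases before the start. They occur in 8.30% of the 32851 mouse promoters in the same table, so this match describes the sequence and does not show binding. By the GENCODE coordinates Socs3 spans bases 117966079 to 117970047, so the whole window lies within the gene. The promoters of S1pr5 and Igfbp4 were also searched and held 0 matches.

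No Th1 gene passed the threshold. Of 17 tested, 2 had both KO libraries above both controls and 1, Cxcr3, had both below. Tbx21, which encodes T-bet, had 80.7 and 68.0 CPM in KO, against 76.7 and 56.1 CPM in control, higher in each pair with overlapping groups (log2 0.18 ± 0.13, adjusted p = 0.993). Ifng had 49.8 and 74.8 CPM in KO, against 67.6 and 34.3 CPM in control. The Ifng pairs went opposite ways, at -0.43 and 1.10 (log2 KO over control). Cxcr3, the chemokine receptor of Th1 cells, had 271 and 291 CPM in KO, against 434 and 322 CPM in control. Its KO libraries were below both controls, with a log2 fold change of -0.41 ± 0.17 and an adjusted p of 0.993.

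Il2, the T cell growth factor, had 48.0 and 25.2 CPM in KO, against 36.8 and 19.9 CPM in control. Tnf had 23.3 and 14.0 CPM in KO, against 15.4 and 17.4 CPM in control. Kept cells with a Tnf UMI made up 11.3% and 4.66% in KO, against 7.83% and 3.61% in control. In cells with no Cd3 UMI the shares were 46.7% and 10.1% in KO, against 30.2% and 3.80% in control. That background lay above the kept cells in every library, so nothing about T cells was read from Tnf. Neither Il2 nor Tnf parted the groups. Il2 was higher in KO in each pair (log2 0.37 and 0.32), although its level differed more between the batches than between the genotypes. Its log2 fold change was 0.36 ± 0.15 (SE), with an unadjusted p of 0.0487 and an adjusted p of 0.993 by edgeR. Of 17 Th1 genes tested, 0 passed, 6 were higher in both pairs and 1 was lower in both, with a median log2 fold change of 0.12.

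The cytokines of the Th17 programme were near the limit of detection in these cells. Il17a had 2 and 0 UMIs in KO, against 0 and 22 UMIs in control, and 14 of the 22 lay in a single cell. It was too low to be tested. Il22 had 14 and 15 UMIs in KO, against 9 and 23 UMIs in control. The Il22 groups overlapped, and its pairs went opposite ways. Kept cells with an Il22 UMI made up 1.70% and 0.333% in KO, against 0.616% and 0.546% in control. In cells with no Cd3 UMI the shares were 9.35% and 1.27% in KO, against 5.33% and 3.80% in control. That background lay above the kept cells in every library. Csf2 had 20 and 12 UMIs in KO, against 18 and 3 UMIs in control (log2 0.93 ± 0.53, adjusted p = 0.993). Il10 had 4 and 65 UMIs in KO, against 6 and 13 UMIs in control, with the excess in a single KO library. Batf, an AP-1 factor that Th17 and effector cells use, was well measured, at 142 and 138 CPM in KO, against 122 and 113 CPM in control. Of 13 Th17 genes tested, 0 passed, 5 were higher in both pairs and 0 were lower in both.

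Of the terminal effector genes named here, S1pr5, Zeb2, Cx3cr1 and S100a11 were higher in KO in both batches and Klrg1 was not. None passed the adjusted threshold. S1pr5 encodes the sphingosine 1-phosphate receptor that lets effector and natural killer cells leave tissue (chromosome 9, bases 21242912 to 21248443, minus strand). It had 40.9 and 10.3 CPM in KO, against 12.2 and 3.36 CPM in control. Each KO library was above its own control, but the second KO library was below the first control, so the groups overlapped. The log2 fold change was 1.69 ± 0.21 (SE) with adjusted p = 0.132.

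Zeb2, a transcription factor that drives terminal effector cells (chromosome 2, bases 44983632 to 45117395, minus strand), had 59.9 and 26.8 CPM in KO, against 16.1 and 12 CPM in control. Here the KO levels lay above both controls (log2 1.52 ± 0.22, adjusted p = 0.238). Cx3cr1, the fractalkine receptor of circulating effector cells, had 54.0 and 18.1 CPM in KO, against 22.3 and 11.2 CPM in control (log2 0.99 ± 0.20, adjusted p = 0.596). Klrg1, an inhibitory receptor of the same cells, had 70.6 and 69.3 CPM in KO, against 74.7 and 25.3 CPM in control. For Klrg1 the difference came from the low second control, and the first pair was level. S100a11, a calcium-binding protein of effector cells, had 1386 and 1235 CPM in KO, against 1278 and 856 CPM in control.

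S1pr5 was called in 4 of 18 alternatives and Zeb2 in 3 of 18, while Cx3cr1, Klrg1 and S100a11 were called in 0. DESeq2, the fit without the low-count filter and the fit without dividing cells each called both S1pr5 and Zeb2 higher in KO. The fit of cells with 5 or more Cd3 UMIs called S1pr5. Of 20 effector differentiation genes tested, 0 passed, 11 were higher in both pairs and 0 were lower in both, beside 25.5% and 24.1% of all genes. Their median log2 fold change was 0.19, at 0.11 in the first pair and 0.29 in the second. The median turned to -0.04 without the first KO library and to -0.08 without the second control library, both without the block.

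More KO cells had the S1pr5 transcript in each batch. Cells were thinned to 1500 UMIs each, which left out 2 and 191 KO cells and 0 and 626 control cells. A UMI of S1pr5 then lay in 9.84% of cells (exact 95% binomial interval 7.82 to 12.2) and 1.67% (1.27 to 2.16) in KO, against 1.94% (1.22 to 2.92) and 0.362% (0.181 to 0.648) in control. Within each batch the intervals did not overlap. The thinning is 1 random draw, these intervals cover counting error only, and cells of a library are not replicates. Without thinning the shares were 14.8% and 2.83% in KO, against 4.05% and 0.847% in control. Among cells with no Cd3 UMI, S1pr5 was found in 1.87% and 0% in KO and in 0% in both controls, below the kept cells of the same library. Cx3cr1 was likewise less frequent in those cells, at 4.67% and 0% in KO, against 1.78% and 0% in control. Zeb2 was found in 15.9% and 21.5% of them in KO, against 10.1% and 6.33% in control. These shares lay above the kept cells in every library except the first KO library, so Zeb2 alone was not shown to differ in T cells.

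**Figure D2:**
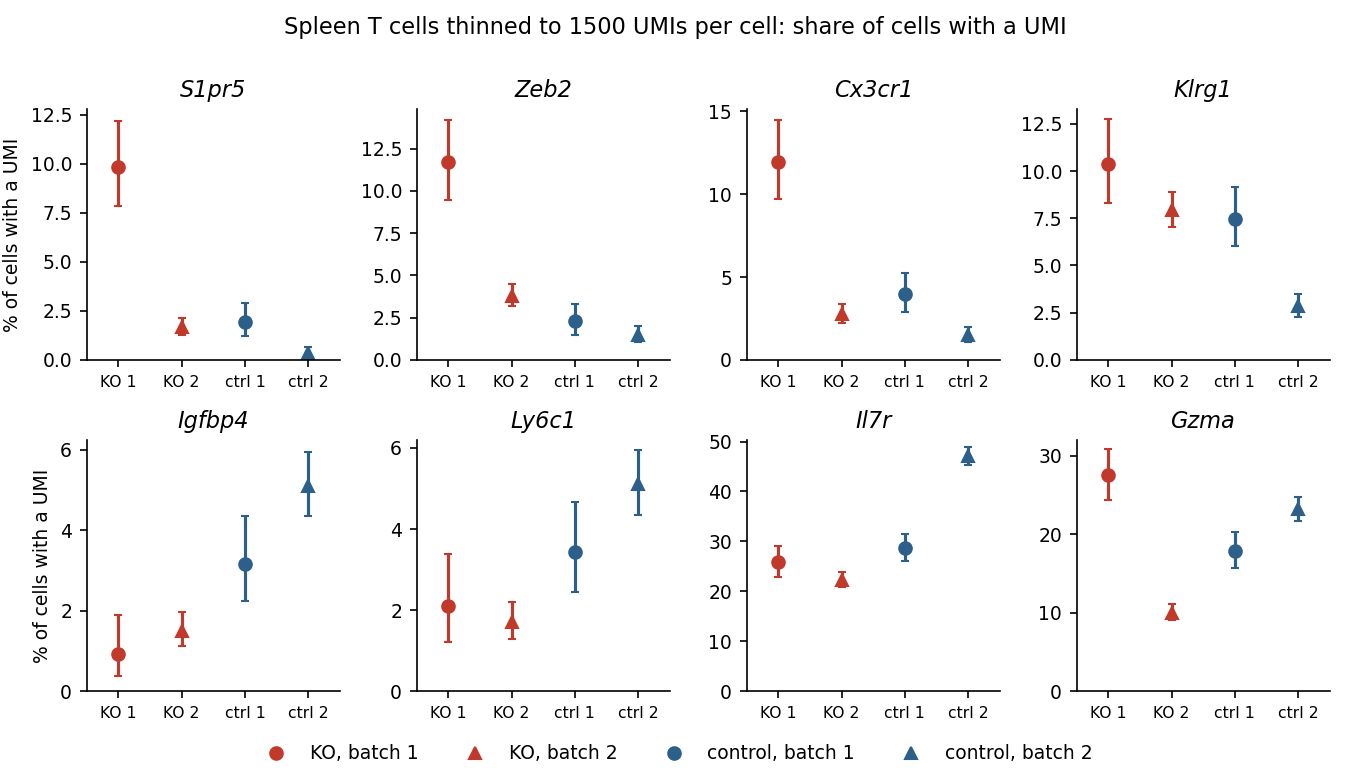
Share of kept spleen cells with at least 1 UMI of 8 genes (y axis, percent) in each library (x axis), after thinning every cell to 1500 UMIs; bars are exact 95% binomial intervals. S1pr5, Zeb2 and Cx3cr1 lie higher in each KO library than in the control of its batch, as does Klrg1; Igfbp4, Ly6c1 and Il7r lie lower, and the Gzma pairs go opposite ways.

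The same cells carried the other effector transcripts. Of the S1pr5-positive cells, 60.2% and 57.8% also had Zeb2 in KO, against 58.7% and 48.4% in control. Among S1pr5-negative cells it was 13.2% and 5.11% in KO, against 4.22% and 2.42% in control. Cx3cr1 was found in 60.2% and 50% of the positive cells in KO, against 73.9% and 58.1% in control. Il7r, the interleukin-7 receptor of long-lived T cells, was found in 30.1% and 12.7% of positive cells in KO, against 65% and 35.2% of negative cells in KO. In control it was found in 23.9% and 16.1% of positive cells, against 62.4% and 60.0% of negative cells. Positive cells numbered 113 and 102 in KO and 46 and 31 in control, and their median depth was below that of the negative cells in every library.

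These S1pr5-positive cells met the T cell rule with a median of 9 and 8 Cd3 UMIs in KO and 11.5 and 5 in control. The negative cells had medians of 18 and 12 in KO and 17 and 8 in control. Cd4 was found in 61.1% and 34.3% of positive cells in KO, against 60.9% and 29.0% in control. Among negative cells Cd4 was found in 80.0% and 53.1% in KO, against 78.7% and 41.2% in control. It was thus less frequent in positive cells in all 4 libraries. Ncr1, which defines natural killer and some innate lymphoid cells, was found in 0% and 0.980% of positive cells in KO. It was found in 0% of positive cells in both controls. Klrb1c, the gene of NK1.1, was found in 2.65% and 4.90% of positive cells in KO, against 10.9% and 9.68% in control. Among negative cells Klrb1c was rarer, at 0.461% and 0.343% in KO, against 1.74% and 1.43% in control. Klre1, a lectin-like receptor of the same marker list, was found in 36.3% and 33.3% of the positive cells in KO, against 21.7% and 29.0% in control. Among S1pr5-negative cells Klre1 was found in 10.6% and 2.03% in KO, against 2.57% and 1.43% in control, so it was more frequent in positive cells in all 4 libraries. The 10 natural killer and innate lymphoid markers summed to 188 and 39.7 CPM over all kept cells in KO, against 63.1 and 22.2 CPM in control. The genes Fcer1g and Tyrobp made part of that sum, and the share of it in the levels of S1pr5, Zeb2 and Cx3cr1 was not tested.

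Fcer1g, a signalling adaptor of innate cells, had 94.3 and 10.2 CPM in KO, against 25.2 and 3.85 CPM in control. Tyrobp, a like adaptor, had 32.4 and 9.73 CPM in KO, against 11.7 and 2.88 CPM in control. Each pair was higher in KO with overlapping groups (log2 1.70 ± 0.19 and 1.59 ± 0.22, adjusted p = 0.109 and 0.192). A UMI of Fcer1g was found in 17.9% and 1.69% of kept cells in KO, against 7.75% and 0.574% in control. Among cells with no Cd3 UMI it was found in 95.3% and 67.1% in KO, against 98.8% and 54.4% in control. The kept cells were below that background in all 4 libraries, so no difference between T cells was read from Fcer1g. Tyrobp was found in 4.06% and 1.42% of kept cells in KO, against 3.79% and 0.683% in control. Among cells with no Cd3 UMI Tyrobp was found in 25.2% and 32.9% in KO, against 24.9% and 15.2% in control. The kept cells were again below, so no difference between T cells was read from Tyrobp either. Car2, a carbonic anhydrase of red cell precursors, had 36.2 and 3.29 CPM in KO, against 4.40 and 1.15 CPM in control, and 102 of the 179 UMIs of the first KO library lay in 1 cell.

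Many genes of naive and memory T cells had lower levels in KO, more so in the second batch, though none passed the threshold. Igfbp4, an insulin-like growth factor binding protein that naive T cells express (chromosome 11, bases 99041244 to 99054392, plus strand), had 9.51 and 13.6 CPM in KO, against 33.3 and 43.9 CPM in control. Both KO libraries were below both controls, and the means were 11.6 ± 2.90 CPM in KO and 38.6 ± 7.52 CPM in control (SD of the libraries). The log2 fold change was -1.74 ± 0.18 (SE), close to the same in both pairs (-1.71 and -1.62), with adjusted p = 0.0724. Igfbp4 passed the threshold in 6 of 18 alternatives, with adjusted p between 0.000683 and 1.

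Ly6c1, outside the naive and memory list, is a surface antigen whose near copy Ly6c2 may share reads. It had 14.0 and 14.9 CPM in KO, against 42.1 and 38.5 CPM in control. The groups did not overlap (log2 -1.47 ± 0.17, adjusted p = 0.111), and 5 of 18 alternatives called it. Bcl2, which protects lymphocytes from apoptosis, had 187 and 130.2 CPM in KO, against 250.1 and 303 CPM in control (log2 -0.82 ± 0.21, adjusted p = 0.971). A UMI of Bcl2 was found in 46.2% and 29.7% of kept cells in KO, against 49.8% and 37.5% in control. Among cells with no Cd3 UMI it was found in 86.9% and 27.8% in KO, against 86.4% and 53.2% in control. Only in the second KO library were the kept cells not below that background. Il7r had 229.7 and 163 CPM in KO, against 248 and 445 CPM in control. Most of its difference lay in the second pair (log2 -0.11 and -1.44). A UMI of Il7r was found in 59.8% and 34.6% of kept cells in KO, against 60.8% and 59.6% in control. Among cells with no Cd3 UMI it was found in 89.7% and 48.1% in KO, against 89.9% and 65.8% in control. The kept cells were below that background in every library, so no difference between T cells was read from Il7r. Foxo1, a transcription factor of quiescent T cells, had 40.7 and 50.6 CPM in KO, against 55.7 and 64.1 CPM in control. Tcf7, the TCF1 gene of memory and stem-like cells, was level at 118 and 146 CPM in KO, against 117 and 139 CPM in control. Id3, another memory factor, had 80.5 and 75.1 CPM in KO, against 65.7 and 56.1 CPM in control.

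Of 20 naive and memory genes tested, 0 passed, 10 were lower in both pairs and 2 were higher in both, beside 24.1% and 25.5% of all genes. Both KO libraries were below both controls for 8 of them. Their median log2 fold change was -0.29, at -0.09 in the first pair and -0.40 in the second. They summed to 3952 and 3174 CPM in KO, against 3996 and 4491 CPM in control, so the first pair was nearly level. Left-out libraries, without the block, gave medians between -0.34 and -0.20.

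**Figure D3:**
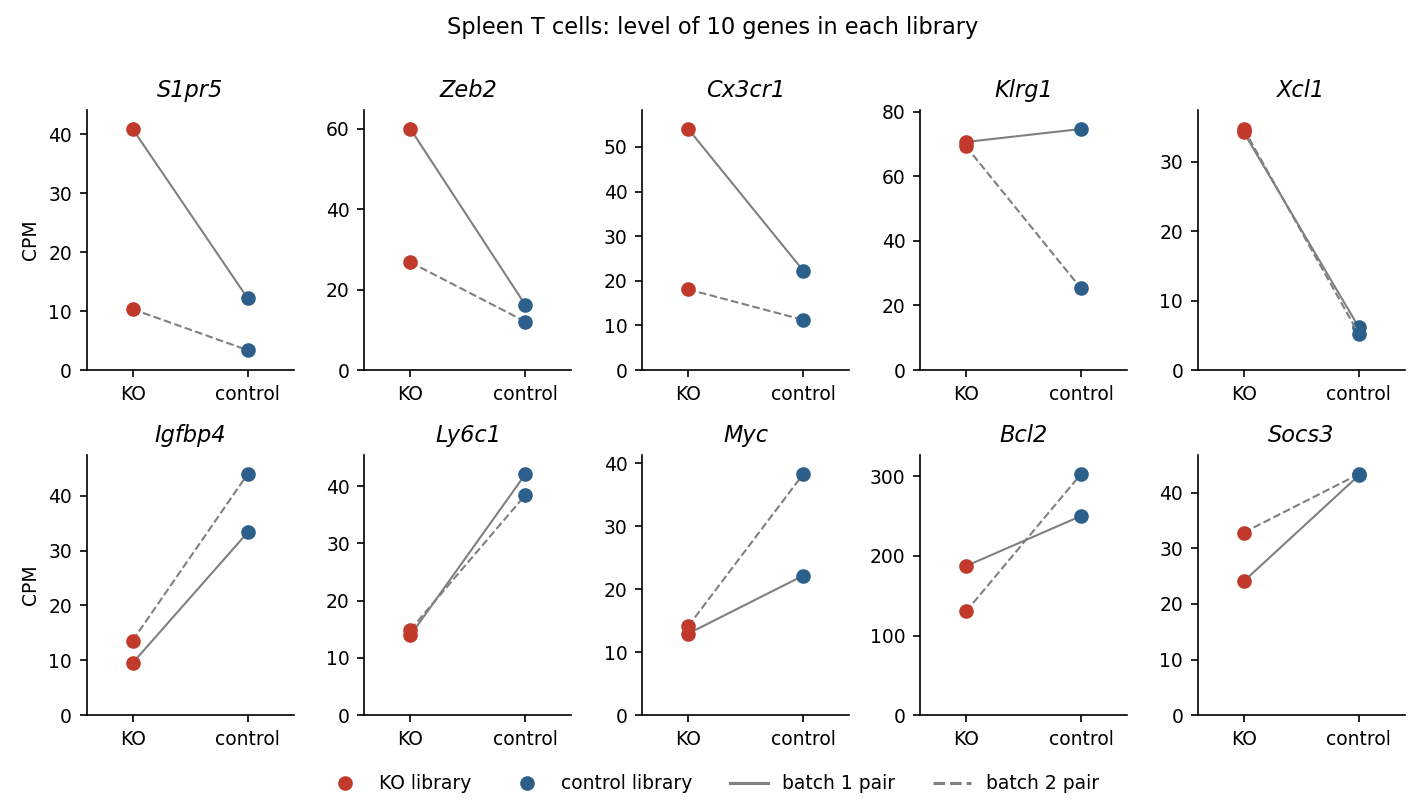
Level of 10 genes (y axis, CPM on a linear scale from 0) in the KO and control libraries (x axis); lines join the libraries of a batch, solid for batch 1 and dashed for batch 2. S1pr5, Zeb2, Cx3cr1 and Xcl1 fall from left to right in both batches, Igfbp4, Ly6c1, Myc, Bcl2 and Socs3 climb, and the Klrg1 lines part.

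At equal depth Igfbp4 was found in 0.919% (0.370 to 1.88) and 1.49% (1.11 to 1.96) of cells in KO, against 3.17% (2.23 to 4.36) and 5.11% (4.35 to 5.95) in control. Without thinning the shares were 2.75% and 2.80% in KO, against 7.75% and 7.40% in control. Among cells with no Cd3 UMI it was found in 5.61% and 6.33% in KO, against 8.28% and 10.1% in control, so those cells held the transcript more often than the kept cells, and the shares of Igfbp4 alone do not separate T cells from that background. Within the kept cells, though, it was not spread evenly. Ccr7, the lymph node homing receptor, was found in 61.9% and 53.5% of Igfbp4-positive cells in KO, against 21% and 8.51% of negative cells in KO. In control it was found in 72.7% and 47.6% of positive cells, against 18.3% and 9.73% of negative cells. Igfbp4-positive cells were the deeper ones, with medians of 7344 and 4026 UMIs in KO and 7488.5 and 2898 in control, against 5627 and 3001.5 in negative KO cells and 5282 and 2343 in negative control cells.

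Further genes were lower in both KO libraries than in both controls, and none passed the threshold. Myc, the growth regulator, had 13.0 and 14.1 CPM in KO, against 22.1 and 38.3 CPM in control (log2 -1.14 ± 0.22, adjusted p = 0.531). Dusp2, a phosphatase that T cell receptor signals induce, had 114 and 99.6 CPM in KO, against 163 and 209 CPM in control. Dtx1, a Notch target and ubiquitin ligase, had 81.4 and 88.7 CPM in KO, against 116 and 159 CPM in control. Their log2 fold changes were -0.80 ± 0.17 for Dusp2 and -0.68 ± 0.14 for Dtx1. Ddit4, an inhibitor of mTORC1, and Fkbp5, a co-chaperone, are both induced by glucocorticoids. Ddit4 had 221 and 207 CPM in KO, against 312 and 336 CPM in control. Fkbp5 had 52.8 and 37.3 CPM in KO, against 75.4 and 61.6 CPM in control. Acp5, an acid phosphatase, had 129 and 133 CPM in KO, against 182 and 243 CPM in control, and Kbtbd11 had 34.6 and 26.3 CPM in KO, against 56.6 and 38.5 CPM in control. Mettl1, a tRNA methyltransferase, was the exception in overlap, at 4.45 and 11.3 CPM in KO, against 10.1 and 20.4 CPM in control. Adjusted p-values of these genes lay between 0.531 and 0.751.

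Il4ra, the interleukin-4 receptor chain, had 16.2 and 15.1 CPM in KO, against 21.4 and 25.4 CPM in control (log2 -0.59 ± 0.20, adjusted p = 0.993). Ccr9, a gut-homing receptor, had 2.23 and 4.24 CPM in KO, against 2.64 and 23.5 CPM in control, so that 1 control library made the difference. Without that library and without the block the log2 fold change of Ccr9 turned to 0.33.

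Many interferon-induced genes had higher levels in KO, mostly in the second batch, and none passed the threshold. Interferons act in part through IRF9, whose complex binds the interferon-stimulated response element. Ifi27l2a, an abundant interferon-induced gene whose near copies may share reads, had 1368 and 1056 CPM in KO, against 843 and 282 CPM in control. The groups did not overlap (log2 1.30 ± 0.34, adjusted p = 0.993). Irf9 had 72.4 and 60.6 CPM in KO, against 57.3 and 33.0 CPM in control (log2 0.61 ± 0.17, adjusted p = 0.912). Oasl2, of the oligoadenylate synthetase family, had 6.68 and 4.39 CPM in KO, against 3.37 and 0.769 CPM in control. Kept cells with an Oasl2 UMI made up 3.80% and 1.55% in KO, against 1.94% and 0.219% in control. In cells with no Cd3 UMI the shares were 11.2% and 8.86% in KO, against 2.37% and 0% in control. That background lay above the kept cells in every library except the second control library, so Oasl2 was not shown to differ in T cells. Bst2, which tethers budding viruses to the cell, had 185 and 135 CPM in KO, against 147 and 98 CPM in control, with overlapping groups. A UMI of Bst2 was found in 54.8% and 35.7% of kept cells in KO, against 50% and 22.6% in control. Among cells with no Cd3 UMI it was found in 89.7% and 59.5% in KO, against 85.2% and 41.8% in control. The kept cells were below that background in every library, so no difference between T cells was read from Bst2.

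The immunity-related GTPases named here, which attack vacuoles of intracellular pathogens, had higher levels in KO in each pair. Irgm1 had 45.5 and 7.83 CPM in KO, against 14.5 and 3.94 CPM in control (log2 1.36 ± 0.24, adjusted p = 0.376). Irgm2 had 20.8 and 10.8 CPM in KO, against 12 and 6.92 CPM in control. Tgtp2, which has the near copy Tgtp1, had 29.1 and 3.66 CPM in KO, against 7.48 and 2.02 CPM in control. For these 3 genes each pair was higher in KO and the groups overlapped. Irgm1 was also found in 36.4% and 5.06% of cells with no Cd3 UMI in KO, against 29.0% and 3.80% in control. The kept cells were below that in all 4 libraries, at 23.3% and 2.75% in KO, against 7.48% and 1.12% in control, so no difference between T cells was read from Irgm1. Kept cells with a Tgtp2 UMI made up 14.5% and 1.33% in KO, against 4.23% and 0.574% in control. In cells with no Cd3 UMI the shares were 38.3% and 6.33% in KO, against 24.3% and 0% in control. That background lay above the kept cells in every library except the second control library, so Tgtp2 was not shown to differ in T cells. Without the first KO library and without the block, Irgm1 turned to -0.21 and Tgtp2 to -0.34.

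Of 40 antiviral genes tested, 0 passed, 26 were higher in both pairs and 1 was lower in both, beside 25.5% and 24.1% of all genes. Their median log2 fold change was 0.40, at 0.12 in the first pair and 0.74 in the second. Of 32 GTPase and antigen presentation genes, 0 passed, 18 were higher in both pairs and 0 were lower in both, with a median of 0.31, at 0.04 and 0.56 in the pairs. With untested members included, the antiviral genes summed to 4818 and 4702 CPM in KO, against 4340 and 2910 CPM in control. The GTPase and antigen presentation genes summed to 19577 and 19182 CPM in KO, against 20863 and 14657 CPM in control. The latter sum was thus lower in KO in the first pair. The antiviral median lay between 0.15 and 0.72 with each library left out. The GTPase median lay between -0.03 and 0.67, and was -0.03 without the second control library. Markers of macrophages and monocytes summed to 379 and 189.7 CPM in KO, against 216 and 155 CPM in control. A single cell held 776 of the 1873 UMIs in the first KO library and 1 cell 333 of the 2593 in the second, and 5 of the 10 markers tested were lower in both pairs (median log2 -0.92). The part of such cells in the interferon lists was not tested. With cells left out that held a narrow set of other-cell markers, an alternative added after seeing the data, the medians were 0.43 and 0.33.

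Promoters of 2 of these genes are shown as examples of the interferon-stimulated response element. Each covers 250 bases before and 50 after the RefSeq start in GRCm38.p6, and capitals mark GAAA followed by any 2 bases and GAAA again, the core of the interferon-stimulated response element, searched on both strands. Irgm1 lies at chr11:48871371-48871670 on the minus strand and Bst2 at chr8:71537423-71537722 on the minus strand. By the GENCODE coordinates Irgm1 spans bases 48861968 to 48871683, so its whole window lies within the gene.
Irgm1: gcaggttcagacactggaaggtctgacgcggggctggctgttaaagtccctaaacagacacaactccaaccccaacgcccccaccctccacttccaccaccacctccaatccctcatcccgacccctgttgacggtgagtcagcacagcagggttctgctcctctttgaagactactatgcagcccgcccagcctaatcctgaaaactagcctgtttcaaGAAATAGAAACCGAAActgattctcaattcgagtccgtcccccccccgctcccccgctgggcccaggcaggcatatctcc
Bst2: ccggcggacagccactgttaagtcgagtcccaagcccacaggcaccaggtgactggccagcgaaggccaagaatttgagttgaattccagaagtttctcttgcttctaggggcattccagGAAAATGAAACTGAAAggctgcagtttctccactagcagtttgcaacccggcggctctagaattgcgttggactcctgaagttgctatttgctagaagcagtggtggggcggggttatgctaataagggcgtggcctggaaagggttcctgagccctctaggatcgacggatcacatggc
Each promoter holds 2 overlapping matches, which begin 30 and 24 bases before the start of Irgm1 and 130 and 124 bases before the start of Bst2. The letters were found for 22 of 37 antiviral genes and 12 of 24 GTPase and antigen presentation genes that had a promoter in the table. They were found for 3.99% of the 27025 genes in the table, for 0 of 17 naive and memory genes and for 0 of 16 effector differentiation genes. A match describes the sequence, and binding was not measured. A link between the letters and the levels in KO was not tested.

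Genes that T cell receptor signals induce were mixed, while co-inhibitory genes leaned higher in KO without any past the threshold. Tnfrsf9, the costimulatory receptor 4-1BB, had 16.0 and 21.2 CPM in KO, against 9.09 and 8.27 CPM in control (log2 1.11 ± 0.23, adjusted p = 0.596). Cdkn1a, the cell cycle inhibitor p21, had 44.5 and 36.1 CPM in KO, against 28.2 and 20.0 CPM in control (log2 0.76 ± 0.16, adjusted p = 0.596). Both KO libraries were above both controls for each of these genes. A UMI of Tnfrsf9 was found in 6.02% and 4.22% of kept cells in KO, against 4.23% and 1.91% in control. Among cells with no Cd3 UMI it was found in 15.0% and 5.06% in KO, against 16.6% and 8.86% in control. The kept cells were below that background in every library, so no difference between T cells was read from Tnfrsf9. Of 24 genes that T cell receptor signals induce, Xcl1 passed, 9 were higher in both pairs and 6 were lower in both.

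Havcr2, the gene of TIM-3, had 18.6 and 10.1 CPM in KO, against 13.2 and 4.13 CPM in control. Tigit, another inhibitory receptor, had 7.69 and 2.93 CPM in KO, against 4.25 and 1.54 CPM in control. Tox2, a transcription factor of chronically stimulated T cells, had 14.8 and 26.3 CPM in KO, against 10.4 and 15.9 CPM in control, and Ikzf2, which encodes Helios, had 32.0 and 21.5 CPM in KO, against 25.8 and 12 CPM in control. In all 4 the pairs were higher in KO and the groups overlapped, with adjusted p = 0.993. Kept cells with a Tox2 UMI made up 7.33% and 7.80% in KO, against 5.02% and 3.82% in control. In cells with no Cd3 UMI the shares were 25.2% and 7.59% in KO, against 10.7% and 7.59% in control. That background lay above the kept cells in every library except the second KO library, so Tox2 was not shown to differ in T cells. A UMI of Ikzf2 was found in 9.95% and 6.02% of kept cells in KO, against 10.1% and 2.73% in control. Among cells with no Cd3 UMI it was found in 28.0% and 16.5% in KO, against 32.0% and 10.1% in control. The kept cells were below that background in every library, so no difference between T cells was read from Ikzf2. Of 16 co-inhibitory and exhaustion genes tested, 0 passed, 8 were higher in both pairs and 0 were lower in both, with a median log2 fold change of 0.35 and left-out medians between 0.13 and 0.39.

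Cytotoxic granule genes leaned the other way. Gzmm, a granzyme, had 31.8 and 28.8 CPM in KO, against 45.0 and 43.4 CPM in control, with both KO libraries below both controls (log2 -0.55 ± 0.14, adjusted p = 0.826). Gzmb, the main killer granzyme, had 189 and 235 CPM in KO, against 237 and 269.7 CPM in control (log2 -0.26 ± 0.14, adjusted p = 0.993). The granzyme inhibitors Serpinb9 and Serpinb6b were lower in each pair (log2 -0.36 ± 0.16 and -0.37 ± 0.13). Of 15 granule genes tested, 0 passed, 7 were lower in both pairs and 0 were higher in both, with a median of -0.15.

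Gzma, by contrast, followed neither genotype. It had 1178 and 363 CPM in KO, against 983 and 2187 CPM in control. KO was slightly above control in the first pair (log2 0.26) and far below it in the second (-2.59), so the fold change of -1.17 ± 1.11 averages opposite results. A UMI of Gzma lay in 27.6% and 10.0% of cells at equal depth in KO, against 17.9% and 23.2% in control.

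**Figure D4:**
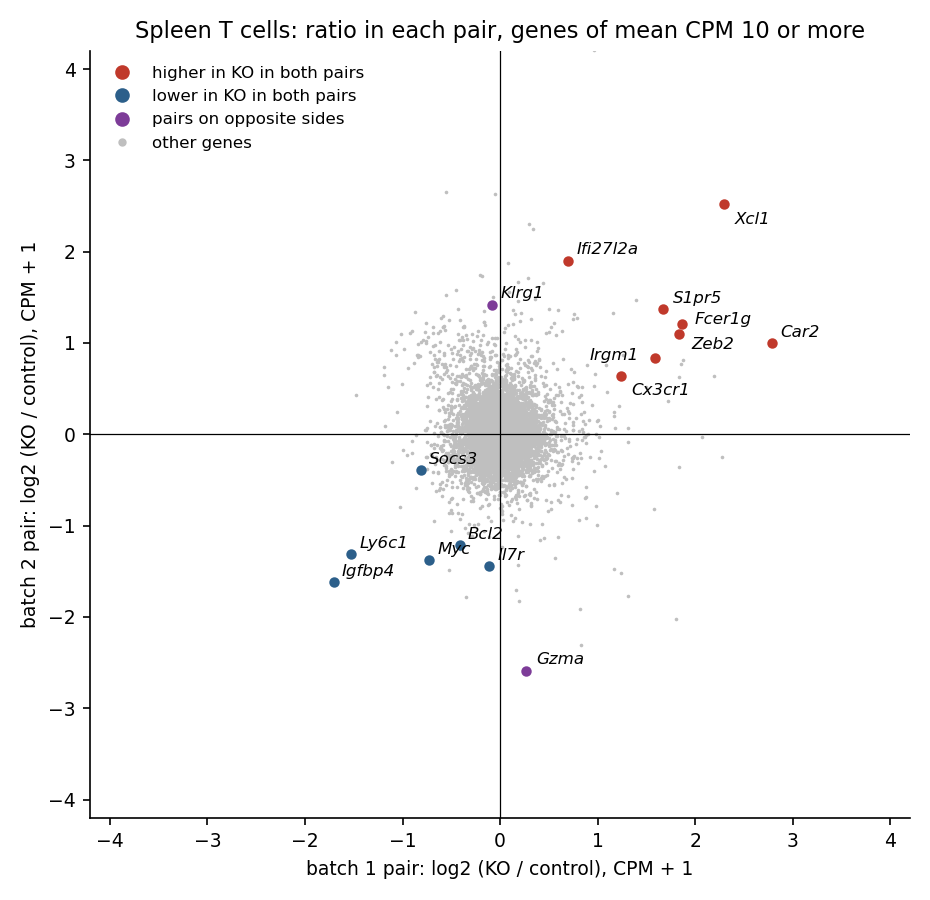
Log2 ratio of KO over control in the batch 1 pair (x axis) and the batch 2 pair (y axis), from CPM plus 1, for the 6803 genes with a mean of at least 10 CPM; 7 genes lie outside the axes. Named genes are red where KO is higher in both pairs, blue where it is lower in both and purple where the pairs disagree, as for Gzma and Klrg1.

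Cell division genes depended on the batch. Cenpa, of the centromere, had 171 and 218 CPM in KO, against 131 and 116 CPM in control. Ccnb2, a mitotic cyclin, had 148 and 176 CPM in KO, against 124 and 104 CPM in control. Hmgn2, a chromatin protein, had 275 and 381 CPM in KO, against 236 and 151 CPM in control. For these 3 genes both KO libraries were above both controls, yet of 43 division genes 0 passed, 6 were higher in both pairs and 1 was lower in both. The median was -0.33 in the first pair and 0.87 in the second. Cells with 2 or more UMIs of 13 cycle genes made up 30.2% and 28.3% of kept cells in KO, against 26.4% and 12.9% in control. At 1500 UMIs the shares were 11.9% and 22.3% in KO, against 13.4% and 11.6% in control, so the second pair carried the difference. Left-out medians lay between -0.28 and 0.72.

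Ribosomal protein genes had lower levels in KO almost throughout, each by a small amount. Of 82 tested, 0 passed, 74 were lower in both pairs and 2 were higher in both, beside 24.1% and 25.5% of all genes. The median log2 fold change was -0.26, at -0.16 in the first pair and -0.35 in the second. Rpl12 had 1382 and 1036 CPM in KO, against 1825 and 1495 CPM in control, and Rpl8 had 2584 and 2186 CPM in KO, against 3033 and 3229 CPM in control. Rpl36a had 1441 and 1093 CPM in KO, against 1773 and 1514 CPM in control. The KO libraries were below both controls for each of the 3 genes. Together the ribosomal protein genes took 249412 and 196069 CPM in KO, against 276971 and 248148 CPM in control. Their many pseudogenes may share reads. The median kept its sign in all 18 alternatives, between -0.41 and -0.11.

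**Figure D5:**
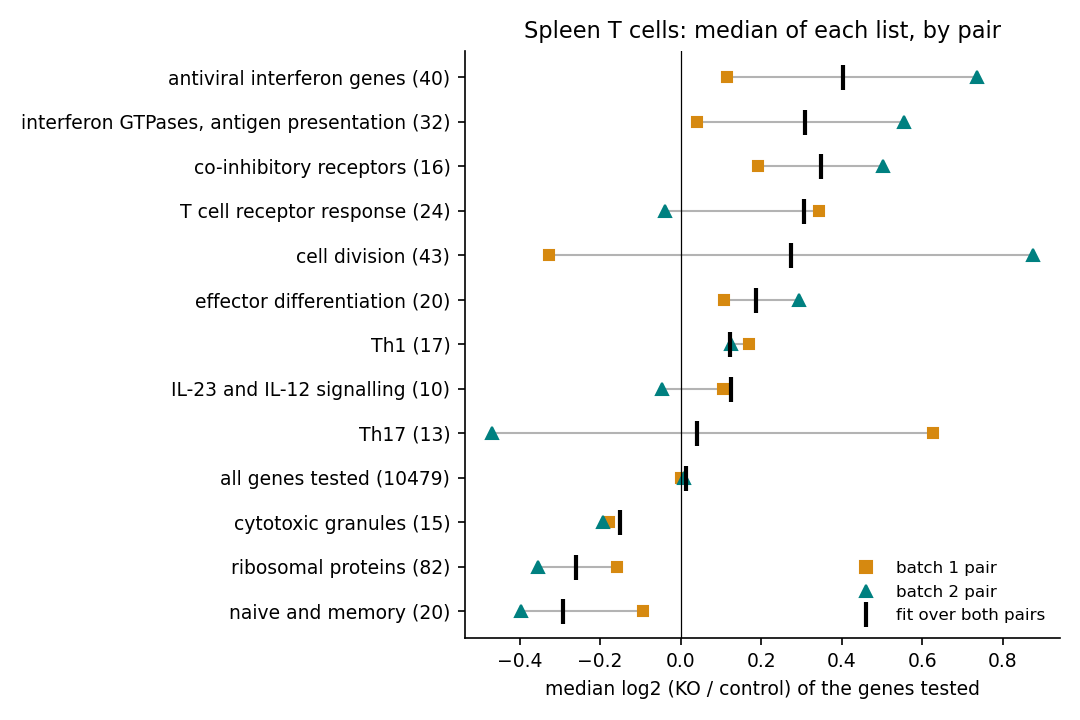
Median log2 ratio of KO over control (x axis) of the genes tested in 12 lists and over all genes (y axis, number of genes tested in parentheses); orange squares are the batch 1 pair, green triangles the batch 2 pair (both from CPM plus 1) and black bars the fit. Ribosomal protein, naive and memory, and cytotoxic lists lie below 0 in both pairs, the interferon lists lie above 0, and the cell division, T cell receptor, interleukin-23 and Th17 lists change side between pairs.

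No member of the remaining lists passed the threshold. Of 22 glycolysis and hypoxia genes, 4 were higher in both pairs and 6 were lower, and Pgk1, a glycolytic enzyme, had 42.5 and 18.4 CPM in KO, against 27.7 and 6.54 CPM in control. For 83 nuclear genes of the respiratory chain the median was 0.04, and for 13 mitochondrially encoded genes it was -0.08, with 7 lower in both pairs and 2 higher in both. Of 13 heat shock genes 6 were higher in both pairs and 3 were lower in both. Lists of heat shock, the BCL2 family, cytokine receptors, trafficking, and follicular and regulatory T cells had medians of 0.14, 0.09, 0.06, -0.03 and 0.22.

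Transcripts of other blood cells were present in the kept cells, with higher erythroid, neutrophil and mast cell sums and lower B cell sums in KO. Erythroid markers summed to 131 and 214 CPM in KO, against 28.9 and 2.98 CPM in control, and 1 cell held 165 of the 649 and 1 cell 963 of the 2922 UMIs in KO. The globin gene Hbb-bs was found in 24% and 18.4% of kept cells in KO, against 8.63% and 0.0819% in control, and in 15.9% and 44.3% of cells with no Cd3 UMI in KO, against 7.69% and 0% in control. Neutrophil markers summed to 5.46 and 14.9 CPM in KO, against 0.293 and 2.79 CPM in control, and 1 cell held 22 of the 27 and 1 cell 72 of the 203 UMIs in KO. Mast cell and basophil markers summed to 10.9 and 2.41 CPM in KO, against 1.61 and 1.83 CPM in control. The B cell markers summed to 4.25 and 3.80 CPM in KO, against 4.99 and 7.21 CPM in control. The part of these cells in the results above was not tested beyond the fits that leave out cells with their markers.

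Whether the spleen responded otherwise than colon lamina propria was tested in a fit of 8 libraries, with the genotype effect of spleen minus that of colon. Of 10976 genes, 0 passed (0%), the smallest adjusted p was 0.335, and 385 passed an unadjusted p of 0.05. DESeq2 called 7 genes higher and 1 lower. In simulated counts for this difference the fit recovered 15% of genes changed by 1 on the log2 scale. It recovered 92% of genes changed by 2, so differences of moderate size could be missed. Every simulated gene had the same dispersion (spread between libraries), so these shares may be too high for genes that vary more. Irgm1 gave 1.89 ± 0.36, with 1.35 in spleen and -0.54 in colon. Zeb2 gave 1.12 ± 0.28 (SE), and Socs3 gave -0.91 ± 0.23, with -0.61 in spleen and 0.30 in colon. None of these 3 passed, each with adjusted p = 1. The difference of Pgk1, the smallest p among the named genes, was 2.17 ± 0.33 with adjusted p = 0.469. For S1pr5 the difference was 3.64 ± 1.13 and for Igfbp4 -1.38 ± 0.89, and neither was shown to differ between the tissues. In colon S1pr5 had 0.0891 and 0 CPM in KO, against 0.339 and 0.0864 CPM in control. Igfbp4 had 2.58 and 1.12 CPM in colon KO, against 0.847 and 3.97 CPM in colon control. The colon part of both differences thus rests on low levels, that of S1pr5 on almost no counts.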

How the data were processed

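Single-cell 3′ libraries (10x Chromium v2) were made from spleen and gut T cells, per the labels' protocols. The authors deposited UMI counts per gene and cell, with Cell Ranger 2.0.2 and mm10 named in the submitters' processing notes, and a table that assigns cells to libraries and batches. Cells with 3 or more Cd3d, Cd3e and Cd3g UMIs were kept and their counts summed per library. No doublet caller was run. Genes were filtered with filterByExpr and tested in edgeR 4.0.16 (TMM scaling, quasi-likelihood, batch as a block, Benjamini-Hochberg adjustment, threshold 0.05). The block left 1 residual degree of freedom. Batch and replicate number coincide in all 32763 cells, and deviations of same-numbered libraries correlated at 0.593 over 6803 genes. The standard error (SE) is the log2 fold change divided by the root of F. In simulated counts the spleen test recovered 72% of genes changed by 1 and 100% of genes changed by 2 on the log2 scale. It made 13 false calls among 10360 genes. Every simulated gene had the same dispersion, 0.024, so these shares may be too high for genes that vary more between libraries. DESeq2 1.42.0, limma 3.58.1 and other filters and cell rules were the alternatives.

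Named genes were 20 pathway, cytokine and effector genes, up to 10 genes a side among those of mean CPM 10 or more with both pairs on 1 side (past the threshold first, then by smallest p), and up to 4 members of each list by smallest p. The rule of up to 10 genes a side was also applied to the spleen minus colon difference, which gave Lyz2 among others. Chil3, S100a8 and Hbb-bs were named after their values were seen. Some genes of the rule are not reported here. Members and lists were chosen with earlier results of these data known. Coordinates are from GENCODE M21. Promoters are from RefSeq. Exact 95% binomial intervals (Clopper-Pearson) cover counting error only.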

Additional observations from a re-analysis of the deposited data

Results flagged for a closer look

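Cells that the T cell rule left out, 217 and 168 in KO and 255 and 418 in control, lay outside the comparisons. Erythroid markers summed to 10797 and 174908 CPM of those cells' UMIs in KO, against 8146 and 57.8 CPM in control, so the lowest KO library, at 10797.4 CPM, was above both controls. Mast cell and basophil markers summed to 648 and 3275 CPM in KO, against 40.5 and 4.81 CPM in control. The lowest KO library, at 648 CPM, was again above both controls. These differences were not tested.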

How the results depend on the processing

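The count of genes higher in KO, 2 with the replicate block, was 0 with no replicate block, 0 with colon lamina propria in the same fit, and 0 to 0 with a library and the block left out together. It was 16 with no filter on low counts, 9 by DESeq2, 10 in all spleen cells, 5 without cycling cells and 1 without cells holding other-cell markers or over 10% mitochondrial UMIs, where the 1 gene was Ccl4. It was 0 without the highest cells and 0 without cells of a narrow marker list, both chosen after seeing the data. The count of genes lower, 0, was 5 with no filter, 2 by DESeq2, 1 by limma, 3 with 5 or more Cd3 UMIs, 2 in all spleen cells and 4 without cycling cells. The spleen minus colon difference, 0 either way, was 7 higher and 1 lower by DESeq2 and 20 higher and 2 lower with no filter. Il23r turned to -0.13 without other-cell markers and Stat3 to -0.0076 in thinned libraries. Il22 turned to 0.028 with no replicate block, 0.012 by DESeq2, 0.16 with 2 or more Cd3 UMIs, 1.14 in all spleen cells and 0.0060 with the narrow list. The fits with a library left out had no block. Without KO library 1, sign changes gave -0.49 for Fcer1g, -0.77 for Il23r, -0.21 for Irgm1, -0.34 for Tgtp2 and -0.24 for Tnf. Without 1 control library they gave 0.33 for Ccr9, -0.084 for Il12rb1, 0.14 for Il12rb2, -0.095 for Klrg1 and -0.047 for Tbx21. Without either of a KO and a control library they gave -0.65 to -0.21 for Csf2, -0.11 to -0.030 for Ifng, -0.17 to -0.025 for Il2, 0.49 to 0.65 for Il22, 0.010 to 0.22 for Stat4 and -0.12 to -0.086 for Tcf7. The cause was not tested. S1pr5, Zeb2, Igfbp4 and Ly6c1 kept their direction in 18 of 18 alternatives. With 1 residual degree of freedom, small changes could be missed, and a left-out library leaves 1 group with a lone library assumed to vary like the other.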
